A study of Arabidopsis thaliana x Arabidopsis arenosa with 4 samples.

Results

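In 79 genes the allele of Arabidopsis arenosa was almost missing from the RNA of whole siliques of 3 interspecific crosses. The genes were chosen because the A. arenosa allele supplied less than 0.5% of the gene's expression in each of the 3 crosses while its total was at least 10 RPKM (a read number scaled to transcript length and to all mapped reads) in each. They are 79 of 16610 genes listed, and 7669 of these reached 10 RPKM in all crosses and could have been chosen. The choice thus rests on the shares and totals themselves, which are given below as a description and without a test.

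The samples were siliques, the fruits with their developing seeds, taken 4 days after pollination. Each of the 3 F1 hybrids joined a tetraploid (4x) A. thaliana of the ecotype C24, Ler or Col with a tetraploid (4x) A. arenosa, by emasculation and pollination by hand, and they are called the C24, Ler and Col crosses. The fourth sample was Allo733, an allotetraploid in generation F8 that carries both genomes and is labelled with the ecotype Ler. All crosses share 1 A. arenosa stock, and A. arenosa is taken as the pollen parent because the sample titles name it last, although no label states the direction. There was 1 library for each of the 4 groups, so no difference has a replicate check, and the depth of sequencing is unknown. Where 3 values follow each other they belong to the C24, the Ler and the Col cross in this order.

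In a young silique most RNA comes from maternal tissue (fruit wall, septum, seed coats), whose cells carry no gene copy from the pollen. RNA from the pollen parent's allele can come from the embryo and endosperm, and from pollen tubes. In a hybrid, reads are told apart by the bases at which both species differ, so an allele can be seen only where such bases lie in the reads. Fewer cells that carry the A. arenosa genome and less A. arenosa RNA per cell cannot be told apart in such bulk samples.

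Markers of silique tissues were looked up in the totals. Of 8 carpel and ovule genes, 7 were listed and 6 reached 10 RPKM in every cross. Pollen genes were listed for 9 of 11, with summed totals of 43.2 RPKM with C24, 62.9 RPKM with Ler and 72.6 RPKM with Col. Among them ANX1 had the lowest A. arenosa share (3.57%, 5.90% and 14.5%) and AGP23 the highest (91.5%, 85.5% and 100%). The direction of the crosses was not tested with these values. Of 12 embryo and endosperm genes only WOX9, a homeobox gene of the early embryo, was listed, at 6.28, 7.18 and 10.8 RPKM. No gene of the carpel and ovule list was among the 79. No pollen, embryo or endosperm gene reached 10 RPKM in every cross, so none could be, and the tables listed no transcript under 2.00 RPKM. The part of such cells in the near absence of the A. arenosa allele was not tested.

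A share below 0.5% was uncommon in any single cross. With C24 it applied to 428 genes (5.58% of the 7669), with Ler to 644 (8.4%) and with Col to 648 (8.45%). The median share of the 7669 genes was 4.98% with C24, 3.42% with Ler and 4.19% with Col. Counting crosses per gene, 6392 genes were below 0.5% in none, 913 in exactly 1, 285 in exactly 2 and 79 (1.03%) in all 3. Members just inside the limit were AT1G72500 with a highest share of 0.472%, LCR69 with 0.468% and PSAE-2 with 0.464%. Genes just outside it were SHN3 with 0.510%, PnsB1 with 0.511% and MEF14 with 0.514%.

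By the choice all 79 genes had at least 10 RPKM. Their summed totals were 15986, 17176 and 14820 RPKM, and the A. arenosa allele supplied 48.8, 45.1 and 44.5 RPKM of these. That is a pooled share of 0.305%, 0.263% and 0.300%. A group of 21 genes had a mean total of at least 100 RPKM, 18 lay between 30 and 100 RPKM, and 40 lay under 30 RPKM.

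Near absence took more than one form in the deposited values. The A. arenosa value was listed at exactly 0 in 119 of the 237 values (79 genes in 3 crosses). Another 26 values were above 0 but at most 0.001% of the total, 18 lay between 0.001% and 0.1%, and 74 were 0.1% or more. Shares below 1% fell on whole multiples of 0.0001% in 2709 of 2710 values, within 0.1 of a step, so the smallest entries are single steps of the authors' table and not a count of reads.

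A listed 0 went with a low total. The A. arenosa allele was at 0 in all 3 crosses for 19 genes, in exactly 2 for 19, in exactly 1 for 24 and in none for 17. None of the 21 genes above 100 RPKM was at 0 in all crosses and 13 were above 0 in each, whereas 15 of the 40 genes under 30 RPKM were at 0 in all. By cross, 39 genes were at 0 with C24, 37 with Ler and 43 with Col. Among all 7669 genes a 0 was listed for 2.45%, 3.69% and 3.89%. An exact 0 can be an estimate that failed, and no floor can be given without depth.

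**Figure D1:**
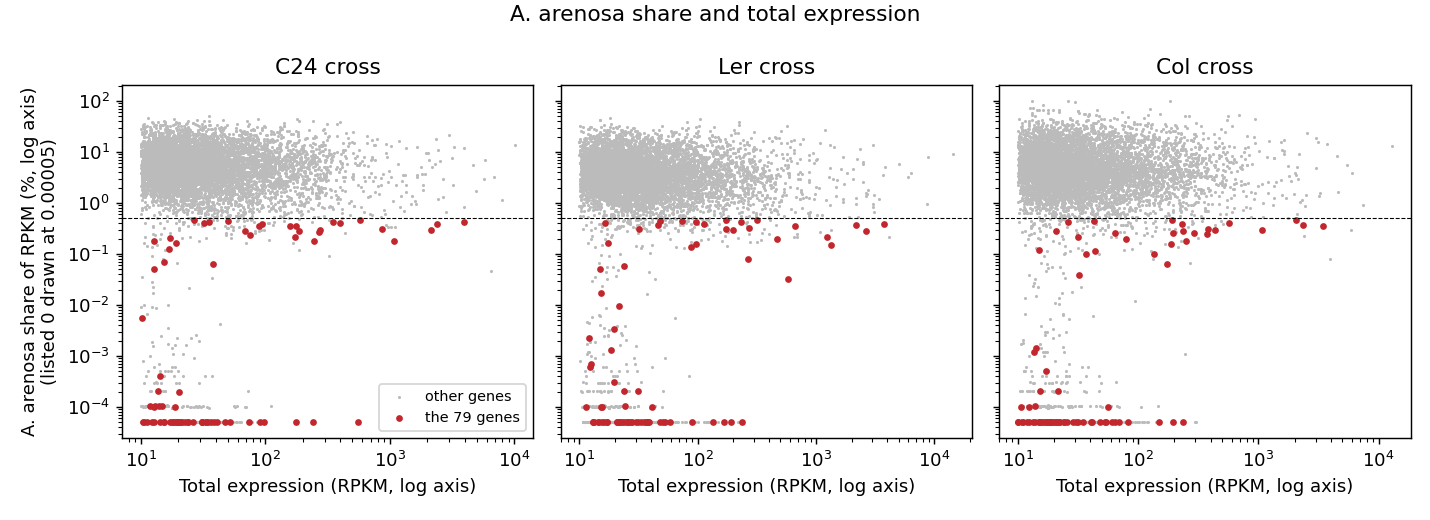
Each point is 1 gene with at least 10 RPKM in every cross, by its total in RPKM and its A. arenosa share in percent, both on log axes, with a listed 0 drawn at the bottom and a dashed line at 0.5%. Most of the 79 genes above 100 RPKM (red) lie just under the line, and most of those at a listed 0 have lower totals.

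The most abundant of the 79 genes serve photosynthesis, which green silique walls carry out. RBCS3B encodes a small subunit of Rubisco, the enzyme that fixes carbon dioxide. Its total was 3957 RPKM with C24, 3771 RPKM with Ler and 3453 RPKM with Col, and its A. arenosa share was 0.424%, 0.380% and 0.346%. PSAL, a subunit of photosystem I, had totals of 2374, 2168 and 2347 RPKM with shares of 0.395%, 0.362% and 0.373%. Both genes were listed above 0 for A. arenosa in all crosses, and in each their share varied little between libraries. Such small variation is largely given, because the choice keeps the share of every member low in each cross.

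The next photosynthesis genes had the same form, a small share above 0 in every cross. DRT112, one of the plastocyanins that carry electrons to photosystem I, had 2127, 2633 and 2051 RPKM and shares of 0.297%, 0.279% and 0.460%. LHCB2.3, a light-harvesting protein of photosystem II, had 1081, 1235 and 1065 RPKM and shares of 0.178%, 0.217% and 0.293%. PSAE-2, a subunit on the stromal side of photosystem I, had 579.6, 669.9 and 574 RPKM and shares of 0.464%, 0.350% and 0.408%. In each of these 3 genes all libraries lay within a range smaller than a 2-fold difference in total.

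Most genes of the same complexes had a higher A. arenosa share, as the choice of members by low shares largely gives. Of 41 photosystem and light-harvesting genes with at least 10 RPKM, 4 were among the 79 (9.76%, beside 1.03% of all 7669 genes), and of 19 Rubisco and Calvin cycle genes 1 was. The other 37 photosystem genes had shares from 0.339% to 24.9% with C24, from 0.264% to 25.3% with Ler and from 0.525% to 33.0% with Col. By its highest share the lowest of them was PSBQ-2, a protein of the oxygen-evolving complex, with 0.344%, 0.294% and 0.525%, just over the limit in 1 cross. PSAH2, a subunit of photosystem I, was lower in the C24 and Ler crosses, with 0.339%, 0.264% and 1.397%. Among the other 18 Rubisco and Calvin cycle genes RBCS1A was lowest by its highest share, with 1.16%, 0.965% and 0.912%, and RBCS1B was lower in the Col cross (1.37%, 1.26% and 0.611%).

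Other chloroplast proteins outside the list were OHP, OEP16-1 and CRR3. OHP is a small one-helix protein of the thylakoid related to light-harvesting proteins, with totals of 171.5, 235.9 and 172.4 RPKM and shares of 0.217%, 0 and 0.0637%. OEP16-1, a channel protein of the outer plastid envelope, had 274, 174 and 232 RPKM and shares of 0.298%, 0.305% and 0.385%. CRR3, a protein of the chloroplast NADH dehydrogenase-like complex, had 36.6, 45.9 and 28.6 RPKM and shares of 0, 0.371% and 0. The A. arenosa allele was thus listed in every cross for OEP16-1 and only in the Ler cross for CRR3.

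Close relatives of these photosynthesis genes had higher shares. RBCS2B, which is 94.3% identical to RBCS3B over the coding sequence, had shares of 3.02%, 3.20% and 1.60%, against 0.424%, 0.380% and 0.346% of RBCS3B. LHCB2.2 (84.5% identical to LHCB2.3) had 12.5%, 3.49% and 23.8%. PETE1, the second plastocyanin gene and 72.9% identical to DRT112, had 1.24%, 1.70% and 1.37%. In all 3 pairs the share was higher in the relative in every cross, which is largely given because the members were chosen for low shares. The totals of RBCS3B and RBCS2B are uncertain because reads of so similar genes can be split between them.

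Over the 79 genes, 43 had a relative that aligned over at least 50% of their coding sequence, and 25 of these relatives reached 10 RPKM in each cross. Of the 25 pairings 3 joined 2 genes of the 79, where members are 1.03% of all 7669 genes. These were EXLA2 with EXLA1, and AT1G29660 and AT1G29670 with each other. With these included, 6, 8 and 7 of the 25 relatives were below 0.5%, beside 5.58%, 8.4% and 8.45% of all 7669 genes. The median share of the 25 relatives was 2.44% with C24, 1.54% with Ler and 1.72% with Col, below the 4.98%, 3.42% and 4.19% of all 7669 genes. A relative with at least 90% identity was found for 3 of the 79 genes (3.8%), beside 4.24% of all 7669. These 3 were RBCS3B, KIN2 and SAUR20.

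Next in total were MT3, KIN2, DHAR1 and AT5G22580, leaving aside PSAE-2. MT3, a metallothionein that binds metal ions, had 857 RPKM with C24, 1347 RPKM with Ler and 381 RPKM with Col, with shares of 0.313%, 0.147% and 0.307%. It was 1 of 3 metallothionein genes with at least 10 RPKM, a list too small to set beside the 1.03% of all 7669 genes. MT2B, the lowest of the others, had 0.706%, 0.531% and 2.76%. KIN2, a gene induced by cold and abscisic acid, had 555, 585 and 235 RPKM and shares of 0, 0.0324% and 0. Its relative KIN1 is 95.0% identical, so the reads of both are uncertain.

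DHAR1 regenerates the antioxidant ascorbate. Its totals were 350.1, 265 and 433 RPKM, and its share was 0.432%, 0.0812% and 0.296%. Its relative DHAR2, 79.1% identical, had 5.44%, 6.06% and 6.46%. The share of DHAR2 was higher in each cross, which is largely given because DHAR1 was chosen for a low share. That of DHAR1 was lowest in the Ler cross. AT5G22580, which encodes a stress-responsive A/B barrel domain protein, had 247, 192 and 375 RPKM, with shares of 0.178%, 0 and 0.244%.

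Genes of the cell wall and xylem included several whose A. arenosa allele was at or near 0. XCP2 encodes a papain-like peptidase of maturing xylem vessels. Its totals were 90.1, 51.1 and 64.5 RPKM, and its A. arenosa value was 0 in each cross. Its relative XCP1, 72.7% identical and also of xylem, had shares of 1.82%, 4.31% and 0. The A. arenosa allele of XCP2 was therefore at 0 in all libraries, and that of XCP1 in the Col cross alone.

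CTL2, a chitinase-like protein needed for cellulose assembly in secondary walls, had 270.7 RPKM with C24, 33.2 RPKM with Ler and 48.3 RPKM with Col. Its A. arenosa value was listed only in the C24 cross, at a share of 0.267%. POM1, the related chitinase-like gene of primary walls, had shares of 9.42%, 8.95% and 4.81%. XCP2 and CTL2 were 2 of 13 secondary wall and xylem genes with at least 10 RPKM (15.4%, beside 1.03% of all 7669 genes). The other 11 had shares from 0.561% to 26.8% with C24, from 0 to 25.2% with Ler and from 0 to 24.8% with Col. The 13 genes of monolignol synthesis, which makes the units of lignin, held no member.

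The expansin-like genes EXLA1 and EXLA2, of a family related to wall-loosening proteins, were both among the 79. EXLA1 had 69.2, 97.2 and 82.6 RPKM with shares of 0.284%, 0.426% and 0. EXLA2 had 50.3, 27.9 and 54.2 RPKM with shares of 0.442%, 0 and 0. FLA18, a fasciclin-like arabinogalactan protein, had 89.2, 47.9 and 78.7 RPKM with shares of 0.349%, 0 and 0.196%. In each of these genes the A. arenosa allele was at 0 in at least 1 cross and above 0 in another.

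Protease inhibitors gave 4 members of the 9 genes whose annotation names one and that reached 10 RPKM (44.4%, beside 1.03% of all 7669 genes). Neither this count nor those of the other lists and families was matched for transcript length or total, with which the percent of members differed (below). AT1G73325, a Kunitz family inhibitor, had 52.0, 11.9 and 31.6 RPKM with shares of 0, 0.0022% and 0.214%. AT2G38870, of the potato inhibitor I type, had 31.0, 41.3 and 41.3 RPKM with 0.000102% in the Ler cross and 0 in the others. TI1, a defensin-like trypsin inhibitor, had 12.4, 37.5 and 22.0 RPKM and A. arenosa at 0 throughout. AT1G72500 is named for a similarity to the heavy chain of an animal inhibitor, and its role as an inhibitor is not known, so its place in this word-based family is weak. It had 26.9, 31.7 and 25.4 RPKM and shares of 0.472%, 0.311% and 0. The highest shares among the other genes of the 9 were those of AT1G71950, with 6.24%, 6.52% and 9.54%. AT3G61980 and AT5G56910 passed 0.5% only in the Col cross.

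The gibberellin-regulated family had members too. GASA4, a cysteine-rich peptide gene induced by gibberellin, had 75.1, 468 and 197 RPKM with shares of 0.239%, 0.196% and 0.252%. AT2G14900, of the same gibberellin-regulated family, had 97.8, 197 and 149.9 RPKM with 0.296% in the Ler cross and 0 in the others. These were 2 of 8 genes with at least 10 RPKM (25%, beside 1.03% of all 7669 genes) in a word-based family that also holds the gibberellin oxidases GA2OX2 and GA20OX2. The share of GASA4 hardly varied between crosses, which is largely given because members were chosen for low shares in each cross.

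The auxin-related SAUR family (small auxin up RNA genes) gave 2 members of 12 (16.7%, beside 1.03% of all 7669 genes). AT4G38840 had 47.2, 52.5 and 61.2 RPKM and A. arenosa at 0 in each cross. SAUR20 had 12.6, 20.9 and 24.1 RPKM and shares of 0.0516%, 0 and 0, and its relative SAUR24, 92.3% identical, had 4.27%, 2.38% and 3.50%. RALFL31 and RALFL32, of the RALF family of peptide signals, had totals from 14.3 to 32.3 RPKM and no share above 0.0384%. LCR69, a defensin-like peptide gene, had 176, 315 and 188 RPKM with shares of 0.349%, 0.468% and 0.157%.

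Some single genes of gene regulation follow, with no count for such genes as a class. ARR7, a response regulator that dampens cytokinin signalling, had 15.2, 24.4 and 13.5 RPKM with shares of 0.0683%, 0.000102% and 0.0012%. BBX14, a B-box zinc finger protein, had 38.7, 97.2 and 56.3 RPKM with shares of 0, 0.158% and 0.000102%. CRF8, of the cytokinin response factor family, had 14.3, 14.9 and 13.8 RPKM, and none of its shares passed 0.0502%. BEH2, a relative of the brassinosteroid factors BES1 and BZR1, had 18.9, 16.1 and 17.0 RPKM and was above 0 only in the Col cross, at 0.000505%. AT3G15680, a zinc finger protein, had 17.0, 31.2 and 42.6 RPKM with 0.440% in the Col cross and 0 in the others, so not all of these genes were near 0. AT2G46810, of the basic helix-loop-helix class, had 13.8, 21.5 and 15.4 RPKM with shares of 0.0002%, 0 and 0.

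Among genes of other kinds, the lipase-like neighbours AT1G29660 and AT1G29670 stood out by position. They lie next to each other on chromosome 1 and are 78.8% identical. AT1G29660 had 185, 173 and 189.98 RPKM with shares of 0.282%, 0.455% and 0.460%, and AT1G29670 had 240.4, 232 and 292 RPKM with 0, 0.423% and 0.258%. AT1G67860 and AT1G67865, of unknown function, are a second adjacent pair on chromosome 1. AT1G67860 was at 0 in each cross, and AT1G67865 was at 0 except in the Col cross, where its share was 0.261%.

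Besides XCP2 and AT4G38840, the most abundant genes at 0 in every cross were AT5G57040, AT3G47295 and AT3G59778. AT5G57040, annotated as a glyoxalase family protein, had 73.4, 58.0 and 40.4 RPKM. AT3G47295, an uncharacterized gene, had 20.9, 37.8 and 34.9 RPKM. AT3G59778 had 33.6, 36.8 and 17.2 RPKM and was not found in the annotation used here. The other 14 genes at 0 throughout are of many kinds, among them TIM17-3, of a mitochondrial import channel, with totals of 10.7, 13.3 and 19.0 RPKM.

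Counts for large families are read beside the 1.03% of all 7669 genes. Ribosomal protein genes gave 0 of 272 and kinases 1 of 353. Transcription factors gave 2 of 192 and zinc finger proteins 2 of 187, shares near that of all genes (1.04% and 1.07%). Histones (0 of 43) and chaperones (0 of 84) are families too small to read a 0. Genes whose annotation names lipid transfer gave 2 of 28 (7.14%), AT1G48750 and AT3G53980. No member came from the lists of seed coat flavonoid genes (8 genes), aquaporins (13), aliphatic glucosinolate synthesis (4), nonspecific lipid transfer (6) or the circadian clock (5), lists too small to read a 0. Counts of 1 or 2 members in lists and families of like size are too small to read as well. Genes that the annotation calls noncoding RNA gave 2 of 25. These were AT2G33815, with 32.4, 73.9 and 43.6 RPKM and shares of 0.401%, 0.451% and 0.114%, and AT3G05905, with shares of 0.124%, 0 and 0.283%.

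The members had short transcripts, a feature the choice did not use. Their median transcript length was 989 bases (77 genes with a length), against 1642 bases for the 7669 genes. Transcripts under 1000 bases made up 50.6% of them (39 genes) and 15.5% of all. The share of genes that were members was 12.5% (4 of 32) under 500 bases, 3.04% (35 of 1151) from 500 to below 1000, 1.27% (27 of 2119) from 1000 to below 1500, 0.222% (4 of 1805) from 1500 to below 2000 and 0.278% (7 of 2519) from 2000 bases up. Short transcripts were more often below 0.5% in each cross taken alone as well: from 500 to below 1000 bases 9.38%, 12.4% and 14.4% of genes were, and from 2000 bases up 3.14%, 4.76% and 4.68%. Several members named under families were short, such as SAUR20 (495 bases), MT3 (580) and PSAE-2 (607), while AT1G72500 had 2619 bases. The part of length in the family counts was not tested.

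**Figure D2:**
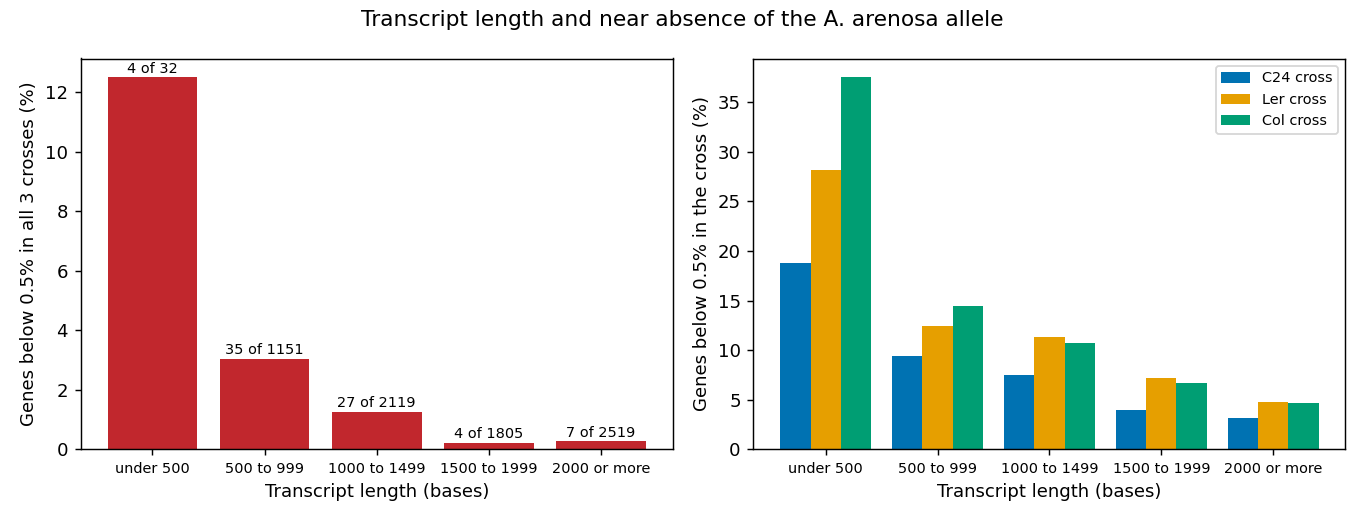
Bars give the percent of genes below 0.5% A. arenosa in all 3 crosses (left, with counts above the bars) and in each cross (right), by transcript length in bases. In the left panel the bars fall from 12.5% for the shortest transcripts to 0.222% and 0.278% for the longest classes.

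Length went with other features of the genes. The median coding length was 507 bases against 1092, the median number of exons 3 against 5, and 20.8% had a single exon (16 genes) against 10.6%. GC content was 40.8% against 42.0%. A gene on the opposite strand overlapped 26.6% of the members and 28.3% of all genes, and whether the libraries kept the strand is not given in the sources used here. A short transcript gives fewer reads at the same RPKM and fewer bases at which alleles can differ, and the part of this in the near absence of the A. arenosa allele was not tested.

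By total expression, members were 1.01% of genes with a mean total of 10 to 20 RPKM (25 of 2475), 0.808% from 20 to 50 RPKM (25 of 3094), 0.730% from 50 to 100 RPKM (8 of 1096) and 2.09% above 100 RPKM (21 of 1004). They lay on all 5 chromosomes, with 26 on chromosome 1, 16 on chromosome 2, 13 on chromosome 3, 9 on chromosome 4 and 15 on chromosome 5. In percent of the genes there, that is 1.33%, 1.39%, 0.84%, 0.761% and 0.813%.

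The recurrence of near absence was described by choosing genes on the share in 2 crosses and reading the share in the third. All genes had at least 10 RPKM in every cross, and those below 0.5% in the third cross are by construction the 79 each time, so these percentages describe the overlap and support nothing further. Of 200 genes chosen by the Ler and Col crosses, 39.5% were below 0.5% in the C24 cross too. Of 147 chosen by the C24 and Col crosses, 53.7% were below it in the Ler cross, and of 175 chosen by the C24 and Ler crosses, 45.1% in the Col cross. Among all 7669 genes the values were 5.58%, 8.4% and 8.45%.

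Among all genes chosen this way, the 79 included, shares in the cross left out reached 33.4% with C24, 31.7% with Ler and 24.6% with Col. The median share in the cross left out was 0.912% with C24, 0.423% with Ler and 0.640% with Col. A share of at least 5% was reached by 15% of the genes chosen (30) with C24, 4.08% (6) with Ler and 9.71% (17) with Col, beside 49.9%, 32.7% and 42.4% of all genes. The crosses share the A. arenosa stock, the annotation and the processing, and their part in this recurrence was not tested.

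**Figure D3:**
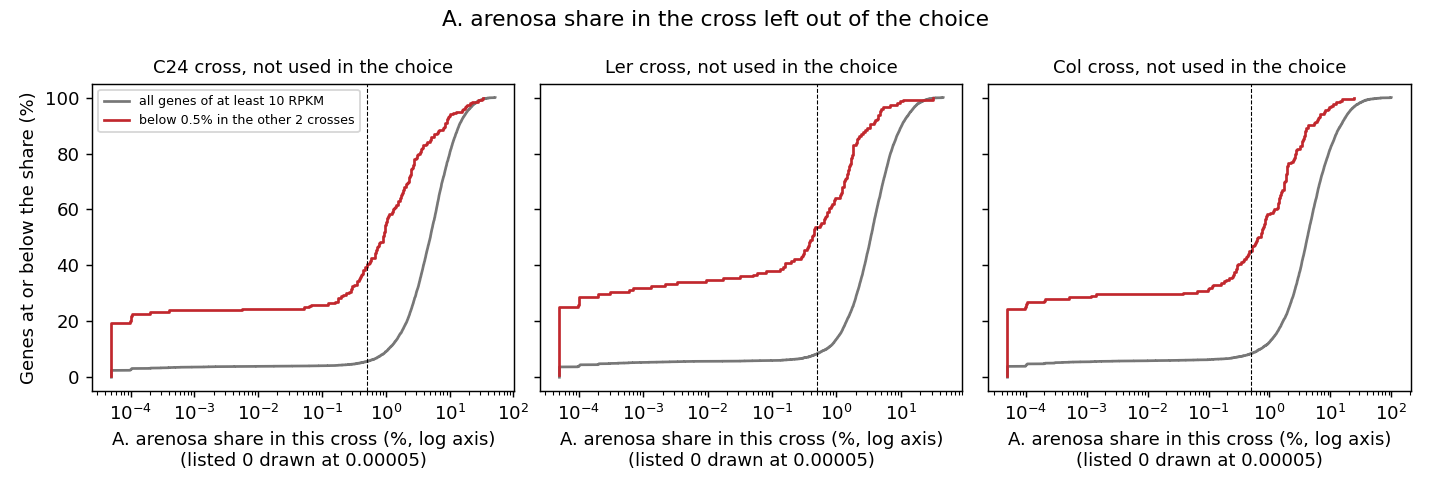
Each panel shows, for the cross left out, the percent of genes at or below a given A. arenosa share (percent, log axis, listed 0 drawn at the left edge). Grey is all 7669 genes and red is the genes below 0.5% in the other 2 crosses; at the dashed 0.5% line red reaches 39.5%, 53.7% and 45.1% and grey 5.58%, 8.4% and 8.45%.

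A few genes were nearly without A. arenosa RNA in 2 crosses and rich in it in the third, and so are not members. ILL1, an amidohydrolase that frees auxin from conjugates, had a share of 27.7% in the C24 cross and 0 in the others, at similar totals of 29.96, 27.4 and 27.4 RPKM. AT1G11850, of unknown function, had 33.4%, 0.379% and 0.260%. AT5G38980, also of unknown function, had 0, 31.7% and 9.87e-05%. IAA19, an auxin-induced repressor, had 0.199%, 0 and 24.6%. AT1G35340, annotated as a protease domain protein, had 31.8%, 0.0001% and 0, at totals of 11.3, 11.4 and 10.49 RPKM. The genes named here are the 3 with the highest share in the C24 cross and the 1 with the highest in each of the others.

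Between crosses, 9 of the 79 genes (11.4%) had a total at least 2-fold above or below both others after centring each cross on its median, beside 4.2% of the 7669. A total is 1 of the values that chose the members, but only as a minimum. The C24 cross was highest for 2 genes (beside 1.29% of all) and lowest for 1 (0.574%). The Ler cross was highest for 2 (0.782%) and lowest for 1 (0.782%). The Col cross was highest for 0 (0.274%) and lowest for 4 (0.691%). GASA4, by the isoform used here, counts both as lowest for C24 and as highest for Ler.

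CTL2 had the largest difference, with its 270.7 RPKM in the C24 cross 8.16-fold above Ler and 5.60-fold above Col. The summed total of the secondary wall and xylem list differed in the same direction, at 2560 RPKM with C24, 516 RPKM with Ler and 660 RPKM with Col, and its part in the value of CTL2 was not tested. XCP2, on the same list, was only 1.76-fold and 1.398-fold higher there. AT1G17620, annotated as a hydroxyproline-rich glycoprotein of the late embryogenesis abundant family, had 398, 136 and 193 RPKM and was also highest in the C24 cross.

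GASA4 had 75.1 RPKM with C24, 468 RPKM with Ler and 197 RPKM with Col in the isoform used here. Its other listed isoform had 49.2, 4.66 and 121.9 RPKM, so Ler was lowest there and the order of the crosses depends on the isoform. AT1G10380, a putative membrane lipoprotein, was highest in the Ler cross (17.8, 38.5 and 15.8 RPKM), a difference just over the limit. AT1G73325 was lowest there, at 11.9 RPKM against 52.0 and 31.6 RPKM. MT3 was lowest in the Col cross, with C24 2.25-fold and Ler 3.53-fold above it, and so was KIN2, with C24 2.36-fold and Ler 2.49-fold above it. AT5G24155, annotated as an oxidoreductase, had 40.6, 25.1 and 10.0 RPKM, and AT3G59778 was the fourth gene lowest in the Col cross.

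**Figure D4:**
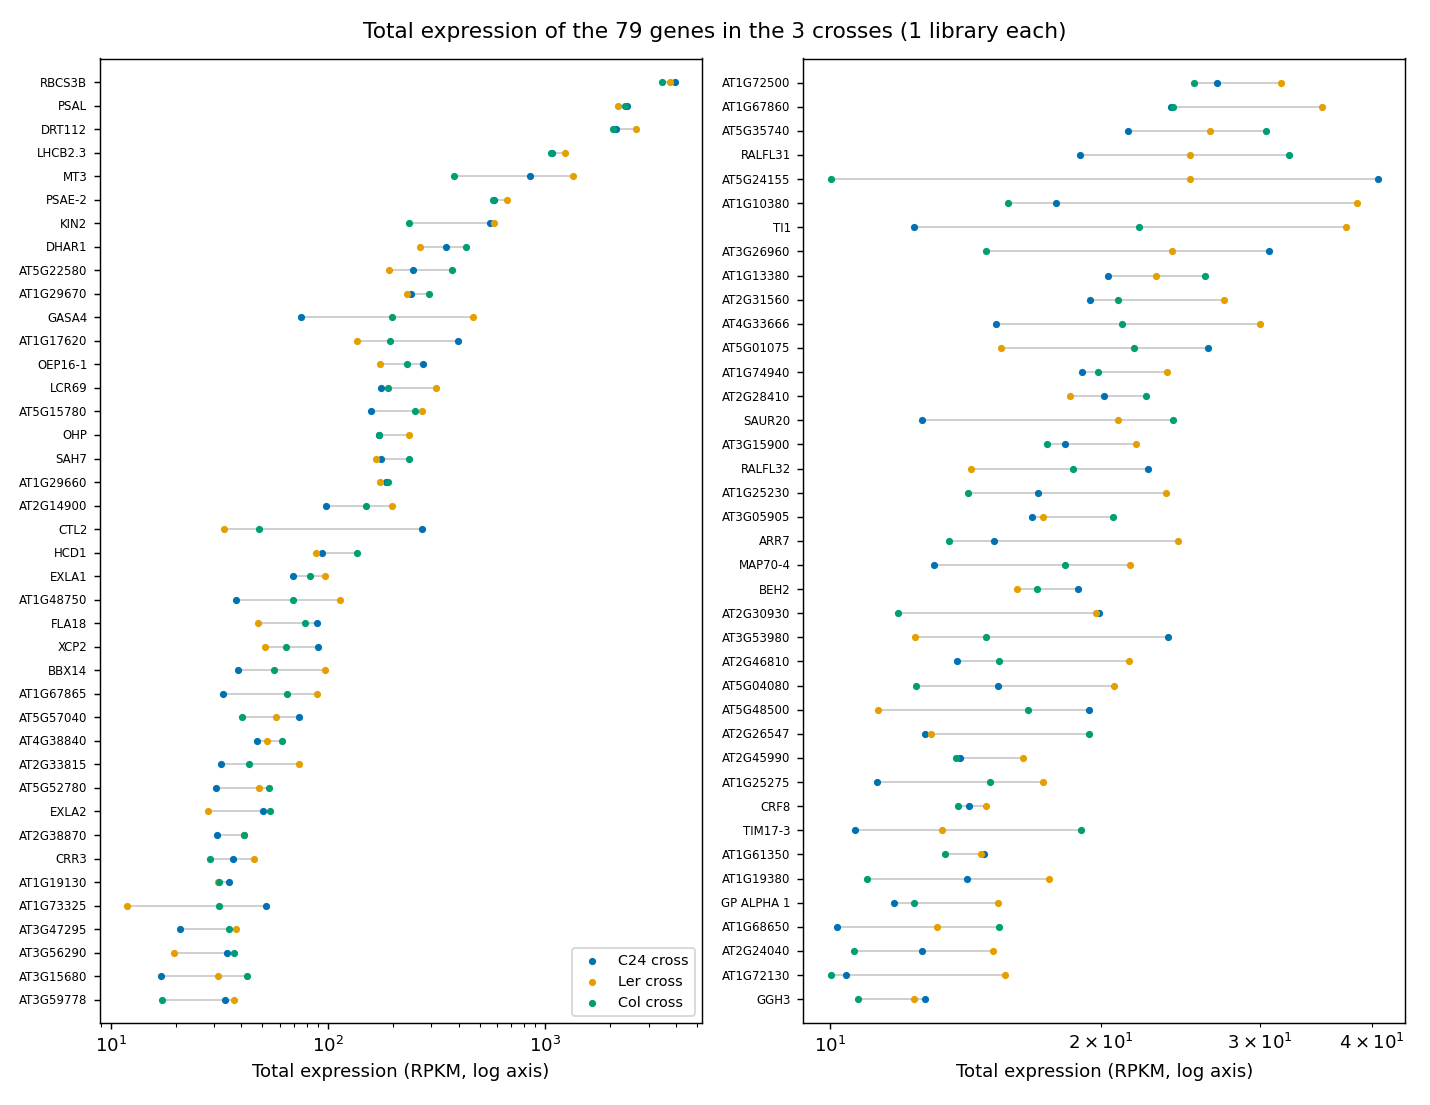
Points give the total RPKM (log axes, which differ between the panels) of each of the 79 genes in the 3 crosses, 1 library each, ordered by mean total. Most lines are short; CTL2 spans 33.2 to 270.7 RPKM and GASA4, in the isoform used, 75.1 to 468 RPKM.

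The deposited tables beside Allo733 list selected transcripts only, with totals and no alleles, and all of them hold the same Allo733 library. Of the 79 genes 34 were in at least 1 table, 12 of them in all 3. The tables held 22, 24 and 22 of the 79 genes. Values in the cross were at least 2-fold above Allo733 for 8, 7 and 6 of them, beside 31.8%, 29.8% and 32.2% of the tables' 1322, 809 and 791 genes. They were at least 2-fold below it for 7, 4 and 4, beside 31.1%, 27.8% and 28.8%.

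The median log2 ratio of the members to Allo733 was 0.62 with C24, 0.88 with Ler and 0.51 with Col, where all genes of the tables had -0.57, -0.37 and -0.23. Higher than Allo733 were 13, 16 and 12 of the members, beside 43.6%, 43.4% and 47.7% of all genes of the tables. By the choice members had at least 10 RPKM in every cross. Allo733 and the other genes of the tables had no such minimum. The rule thus favours members that are higher in the cross, and these medians and counts are not on equal terms with those of all genes. LHCB2.3 was past 2-fold in each cross, at 1081, 1235 and 1065 RPKM against 210.7 RPKM in Allo733, which is 5.13-fold, 5.86-fold and 5.05-fold higher. AT1G67865, of unknown function, had 33.1, 89.1 and 64.6 RPKM against 7.16 RPKM. The other photosynthesis genes in all tables were higher in the crosses by less: RBCS3B by 2.03-fold, 1.93-fold and 1.77-fold, PSAL by 1.80-fold, 1.65-fold and 1.78-fold, DRT112 by 1.51-fold, 1.86-fold and 1.45-fold, and PSAE-2 by 1.56-fold, 1.80-fold and 1.55-fold.

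AT1G73325 was the gene at least 2-fold lower in all 3 crosses, and by the largest ratio. The Kunitz inhibitor had 611 RPKM in Allo733 against 52.0, 11.9 and 31.6 RPKM, which makes Allo733 11.7-fold, 51.2-fold and 19.3-fold higher. The defensin-like LCR69 had 569 RPKM in Allo733 against 176, 315 and 188 RPKM, and AT5G22580 had 725 RPKM against 247, 192 and 375 RPKM. BBX14, listed for the Ler and Col crosses, had 97.2 and 56.3 RPKM against 17.0 RPKM. AT4G33666, an uncharacterized gene, had 30.03 and 21.1 RPKM in the same crosses against 4.60 RPKM. Allo733 differs from the crosses in generation and parents at once. With A. arenosa as the pollen parent, maternal tissue of the silique also carries both genomes in Allo733 and only that of A. thaliana in the crosses. Any preference of the mapping for A. thaliana reads could then lower totals more in Allo733. These differences cannot be told apart, and their parts were not tested.

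**Figure D5:**
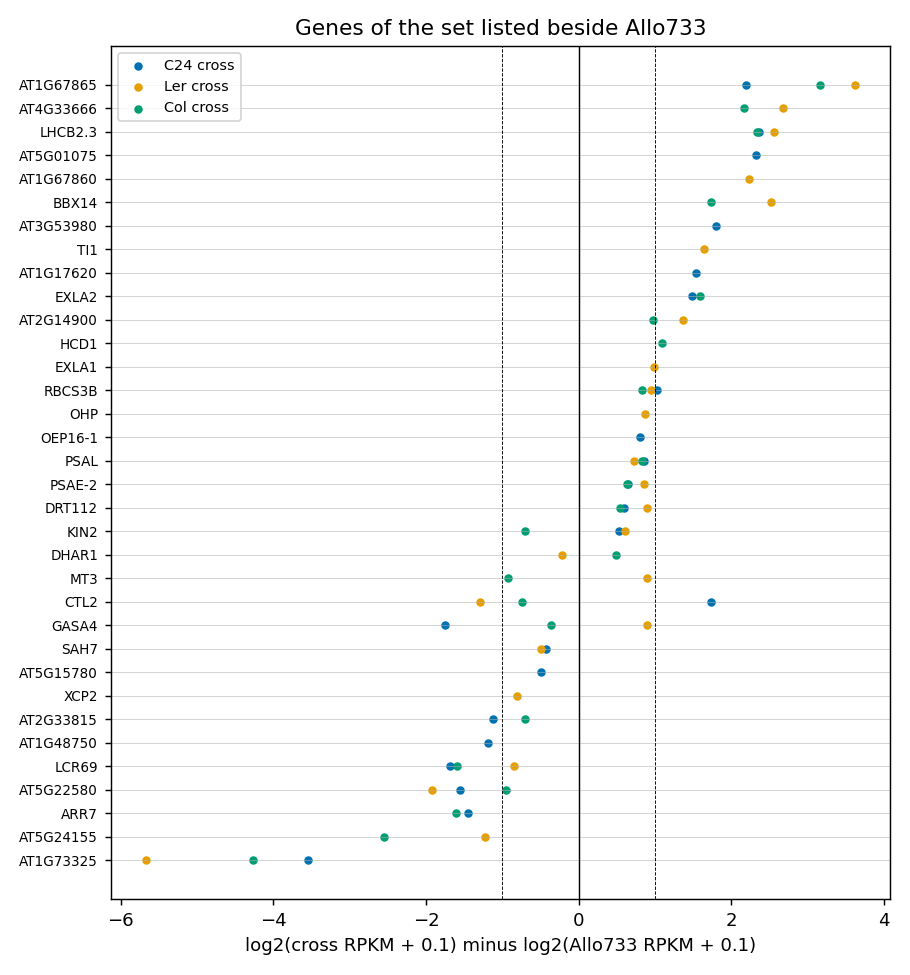
Points give log2 of a cross's RPKM plus 0.1 minus log2 of the Allo733 RPKM plus 0.1 for the 34 genes listed, 1 point per table; dashed lines mark a 2-fold difference. AT1G73325 lies farthest to the left, at -3.55, -5.67 and -4.27, and AT1G67865 and LHCB2.3 lie to the right of the line in all tables.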

How the data were processed

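RNA-seq of siliques was analysed from 4 groups of 1 library each, grouped by the labels' ecotype and sample type. The authors deposited RPKM per transcript, per the file headers, in total and for each allele of a cross, and for selected transcripts beside Allo733. The submitters' processing notes name TAIR 9; no aligner, annotation or method of allele assignment is named there or in the labels. The columns T and A were taken to mean A. thaliana and A. arenosa. Any preference of the mapping for A. thaliana reads would lower all A. arenosa shares. Allele values summed to the total within 0.000497%. Repeated header lines (4) of the Col cross were dropped, and 41 transcripts with both alleles at 0 have no share. Depth is unknown, so no intervals are given.

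One transcript per gene was used, listed in most files and then with the highest mean total. For RBCS3B a second isoform had a share of 0.501% in the C24 cross, over the limit. Other isoforms of AT2G45990, AT1G72130 and AT2G31560 were also over it in at least 1 cross, at up to 1.61%, 0.809% and 0.766%. The share is A. arenosa RPKM over both alleles. Differences used log2(RPKM + 0.1), which understates changes of low genes, and a 2-fold rule, with median centring between crosses. With 1 library a group no test was made. Names, lengths and relatives (blastn 2.17.0, best other gene, e-value up to 1e-10) came from the TAIR10.1 annotation, where 77 of the 79 genes were found. Relatives were sought with coding sequences, or with the transcript for noncoding genes, so identity over untranslated parts was not measured. Gene order, overlaps, GC content and identities rest on that assembly, and no coordinates or sequences are printed. Named genes were the most abundant members, those at 0 in all crosses, those with the largest differences, members of lists or annotation-word families and those nearest the limit; RBCS2B and other relatives, OHP, OEP16-1, CRR3, EXLA1, EXLA2, FLA18, RALFL31, RALFL32, ARR7, BEH2, PSAH2, RBCS1B, TIM17-3 and the genes high in 1 cross were added after their values were seen. The members and all lists were chosen with earlier results of these data known. The selection was run on simulated data with shares and totals kept off the limits, which checks the code and not the choice near the limits. Python 3.11.15, numpy 2.4.6, pandas 2.3.3 and matplotlib 3.10.9 were used.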

Additional observations from a re-analysis of the deposited data

Results flagged for a closer look

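For 5 of the 79 genes the crosses lay on both sides of Allo733, with 1 library a group, and the difference between the crosses was not tested. Values are log2 of the cross over Allo733 with 0.1 RPKM added. CTL2 had 1.74 (C24), -0.75 (Col) and -1.29 (Ler). GASA4 had the opposite order, with -1.75 (C24), -0.36 (Col) and 0.89 (Ler), for the isoform used here. KIN2 had 0.53 (C24), 0.60 (Ler) and -0.71 (Col). MT3 had 0.89 (Ler) and -0.93 (Col). DHAR1 had 0.49 (Col) and -0.22 (Ler), and the table of C24 beside Allo733 lists neither MT3 nor DHAR1.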

How the results depend on the processing

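Of 103 values under alternatives, 62 stayed near the reported value and 41 moved. Near meant within 1.5 times it for counts and the median length. For percentages in the cross left out it meant inside a binomial interval around the reported value. That interval treats genes as independent and measures no spread between libraries. No test stands behind these labels, and apart from settings that hold fewer or more genes by construction the cause was not tested. The 79 genes became 216 with a share limit of 1%, 43 with 0.2%, 140 with a minimum of 5 RPKM, 40 with 20 RPKM, 242 with no minimum, 155 to 213 when each cross was left out, and 38 with transcripts of 1000 bases or longer, a setting chosen after seeing the data. With a limit of 1% the percent below it in the cross left out was 54% (C24), 67.5% (Ler) and 56.7% (Col), and the lists of aliphatic glucosinolate synthesis, seed coat flavonoid genes and aquaporins gained 1 member each and nonspecific lipid transfer 2. The 9 genes whose total differed between crosses became 1 under a 4-fold rule (CTL2), 5 with 20 RPKM and 3 with 1000 bases. Genes highest in the C24 cross (2) became 1 under the 4-fold rule and 4 with 5 RPKM; the 1 lowest there became 0 under the 4-fold rule and with 1000 bases. Genes highest in the Ler cross (2) became 0 under the 4-fold rule and 1 with a pseudocount of 1 RPKM, 5 RPKM, 20 RPKM or 1000 bases; the 1 lowest there became 2 with 5 RPKM and 0 in the other settings named, except the pseudocount. Genes lowest in the Col cross (4) became 0 under the 4-fold rule, 7 with 5 RPKM, 2 with 20 RPKM and 0 with 1000 bases. Against Allo733 a 4-fold rule left 3 of 8 higher and 1 of 7 lower in the C24 cross, 1 of 4 lower in the Ler cross, and 3 of 6 higher and 2 of 4 lower in the Col cross. Centring moved no count past its limit; without it the median of all genes was shifted by -0.13 between the C24 and Ler crosses and -0.12 between the C24 and Col crosses. No paired analysis was possible because each group had 1 library. Unknown depth limits every share near 0.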
